A study of Mus musculus with 12 samples.

Results

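Chemokine receptor mRNA was described in lymph node (LN) T cells for 9 genes taken by their symbols from a count table of 49585 genes: *Ccr7*, *Ccr9*, *Cxcr3*, *Ccr2*, *Ccr4*, *Ccr8*, *Ccr6*, *Cxcr4* and *Cxcr5*. All 9 had enough counts to be tested. The RNA-seq data comprised 12 samples in 4 groups of 3. All were sorted for TCRβ and CD62L from the LNs of male mice aged 6 to 10 weeks, with no treatment named. The study's methods call the sorted cells naive and also name a CD44- gate, which the labels do not. B6 CD4+ and B6 CD8+ T cells came from C57BL/6 (B6) mice, which carry the unmodified *Cd4* and *Cd8* loci. CD8.1 and CD8.2 T cells came from CD8Dual mice, named 8in4 in the sample labels, whose *Cd4* locus was altered in the germ line to encode CD8α.1 and CD8β instead of CD4 and whose *Cd8* locus was intact. In homozygous CD8Dual mice, CD8.1 T cells carry CD8 co-receptors encoded by the *Cd4* locus and CD8.2 T cells carry those encoded by the *Cd8* locus, so that no cell of these mice has an unaltered *Cd4* locus. Each sample was RNA of pooled sorted cells, and the number of mice in a pool was not given in the sources used here, so that *P* values measure the spread between samples and not necessarily between animals. CD4+ and CD8.1 T cells are called helper lineage below, and CD8+ and CD8.2 T cells cytotoxic lineage, after the study's own usage.

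Chemokine receptors are G-protein-coupled receptors that let leukocytes migrate towards chemokines, small proteins displayed on vessel walls and stroma. Ligand binding releases inhibitory G proteins, which drive integrin adhesion and movement of the actin cytoskeleton. The receptors a T cell displays decide where it can go: CCR7 admits naive T cells to LNs, CXCR5 opens the B cell follicle, and CCR9, CCR4, CCR6, CCR8, CCR2 and CXCR3 guide cells to the gut, skin, mucosa and inflamed tissue.

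Total counts ranged from 18667474 to 37110502 per sample, and 3 counts, taken as the lowest level that could be shown, equalled 0.0875 to 0.167 CPM, a floor that covers counting error only. CPM are counts scaled to library size after TMM (trimmed mean of M-values) normalization. *Cd4* (B6 CD4+ mean 969 CPM, B6 CD8+ 0.244) and *Cd8a* (1.17 and 1423 CPM) separated the B6 groups as labelled, and *Zbtb7b*, which encodes the helper factor ThPOK, separated CD8.1 (154 CPM) from CD8.2 (1.91 CPM). A summed list of 8 pan-T-cell genes reached 4867 CPM or more in every sample. Of these genes, 3 were higher and 1 lower in B6 CD4+ than in CD8+ T cells, against 11.4% and 11.7% of all tested genes. In CD8.1 over CD8.2 cells 3 were higher and 2 lower, against 14.9% and 13.8%, and 0 were called between strains. Within their groups, CD8.2 replicate 3, the deepest library, and CD8.1 replicate 1 stood apart: their counts differed from the other replicates by a chi-square per gene of 52.9 and 79.5 for the first and 28.9 and 30.4 for the second, against 8.21 to 19.6 for all other pairs. Without CD8.2 replicate 3, 440 genes were called for CD8.2 over B6 CD8+ cells, against 1042 with it. Leaving out any other single sample of these groups also gave fewer than 1042, so this drop is not particular to that replicate. Without CD8.1 replicate 1, 2958 genes were called for CD8.1 over B6 CD4+ cells, against 1674 with it.

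The 9 receptors divided into those higher in helper lineage and those higher in cytotoxic lineage T cells, and in B6 mice all 9 were on one side or the other. By the quasi-likelihood test of edgeR, Benjamini-Hochberg adjusted over 13118 genes (adjusted *P* under 0.05), *Ccr8*, *Ccr4*, *Ccr6* and *Ccr7* were higher in B6 CD4+ than in B6 CD8+ T cells, 4 of 9 where 11.4% of all tested genes were higher. *Ccr9*, *Cxcr3*, *Ccr2*, *Cxcr5* and *Cxcr4* were lower, 5 of 9 against 11.7% of all tested genes. In CD8Dual mice, 5 of 9 were higher in CD8.1 than CD8.2 cells (*Ccr8*, *Ccr4*, *Ccr6*, *Ccr2* and *Ccr7*) against 14.9% of genes, and 3 of 9 were lower (*Ccr9*, *Cxcr3* and *Cxcr5*) against 13.8%. Hence 7 receptors were called in the same direction in both strains, *Ccr2* was called in opposite directions, and *Cxcr4* was called in B6 mice alone. By the study's definition of a differentially expressed gene (DEG), a fold change above 5 with an unadjusted *P* under 0.05, 4 of the 9 were DEGs in B6 mice (3.29% of all tested genes) and 6 of the 9 in CD8Dual mice (3.32%). The median absolute log2 fold change of the 9 receptors was 2.12 in B6 and 2.86 in CD8Dual mice, and that of all tested genes was 0.20 and 0.24.

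**Figure D1:**
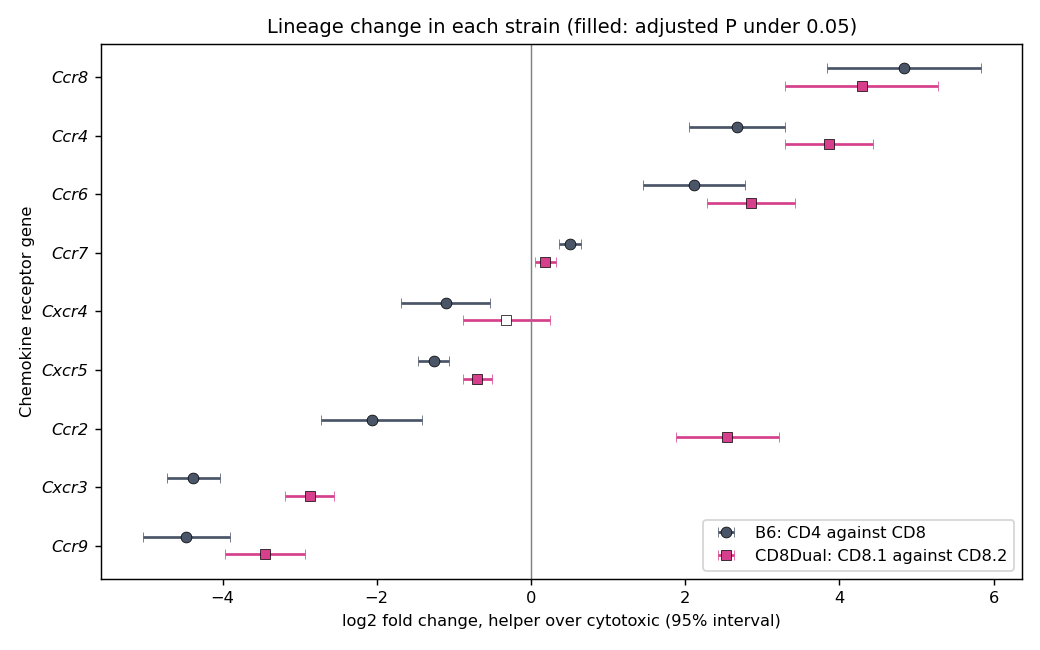
Log2 fold change of each receptor between lineages, helper over cytotoxic (horizontal axis), for B6 mice (grey circles, CD4+ against CD8+ T cells) and CD8Dual mice (pink squares, CD8.1 against CD8.2 T cells), with 95% intervals and filled symbols for an adjusted *P* under 0.05. *Ccr8*, *Ccr4* and *Ccr6* lie far to the right and *Cxcr3* and *Ccr9* far to the left in both strains, while *Ccr2* lies at −2.07 in B6 and 2.55 in CD8Dual mice.

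CCR7 binds CCL19 and CCL21 and brings naive T cells through high endothelial venules into the LN paracortex. Its gene (GRCm38/mm10, chr11:99144196-99155077, minus strand, GENCODE M21) has 3 exons, all coding, for 378 amino acids. *Ccr7* was measured at 736, 784 and 766 CPM in B6 CD4+ replicates 1 to 3, at 765, 754 and 763 CPM in CD8.1, at 639.6, 679 and 687 CPM in CD8.2 and at 568, 543 and 503 CPM in B6 CD8+ T cells. It was abundant in every sample, and its group means spanned only 1.42-fold. The B6 CD4+ and CD8.1 samples overlapped, all CD8.2 samples lay below them, and all B6 CD8+ samples lay lowest. The log2 difference between lineages was 0.50 ± 0.07 (s.e.) in B6 mice (edgeR adjusted *P* = 3.36e-05) and 0.19 ± 0.07 in CD8Dual mice (edgeR adjusted *P* = 0.0452). The CD8Dual call was close to the threshold and was lost when any single CD8Dual sample was left out (adjusted *P* 0.0532 to 0.194). It was also lost in edgeR with no filter (adjusted *P* = 0.209), only the groups compared (0.06) and samples blocked by replicate number (0.0515). In 4 alternatives it held.

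*Cxcr3* and *Ccr9* marked the cytotoxic lineage most strongly. CXCR3 binds the interferon-induced chemokines CXCL9, CXCL10 and CXCL11 and takes effector and memory T cells into inflamed tissue, and CCR9 binds CCL25 of thymic and small intestinal epithelium. *Cxcr3* (chrX:101731535-101734269, minus strand) has 2 exons, both coding, for 367 amino acids. It was measured at 104, 112 and 135 CPM in B6 CD8+ and 105, 107 and 109 CPM in CD8.2 T cells, but at only 3.91, 6.16 and 6.68 CPM in B6 CD4+ and 13.3, 17.0 and 13.5 CPM in CD8.1 T cells. The 6 cytotoxic samples overlapped between strains, while the CD8.1 samples lay wholly above the B6 CD4+ samples. *Cxcr3* was 20.8-fold lower in B6 CD4+ than in CD8+ T cells (log2 −4.38 ± 0.16, edgeR adjusted *P* = 1.97e-11) and 7.32-fold lower in CD8.1 than CD8.2 cells (log2 −2.87 ± 0.15, edgeR adjusted *P* = 1.03e-09).

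*Ccr9* (chr9:123678439-123784330, plus strand) has 3 exons in its principal transcript, of which exons 2 and 3 encode 369 amino acids and exon 1 is untranslated. Its level was 382, 396 and 378 CPM in CD8.2 and 202, 215 and 193 CPM in B6 CD8+ T cells, against 29.2, 49.4 and 27.1 CPM in CD8.1 and 5.73, 7.80 and 13.9 CPM in B6 CD4+ T cells. The 4 groups did not overlap at any step of this order, and the highest mean was 42.0-fold above the lowest, the widest span among the 9 receptors. Within strains *Ccr9* was 22.1-fold lower in B6 CD4+ than in CD8+ T cells (log2 −4.47 ± 0.26, edgeR adjusted *P* = 3.39e-09) and 10.9-fold lower in CD8.1 than CD8.2 cells (log2 −3.45 ± 0.24, edgeR adjusted *P* = 3.76e-08). Exons of *Ccr9* overlap those of *Slc6a20a* and *Gm17200*, which held at most 3 and 1 counts in any sample. They also overlap *AC165425.1* on the other strand, whose counts are not given here.

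The sequences ahead of the annotated RefSeq starts of these 2 genes and of *Ccr4* and *Ccr8*, described below, are shown because these receptors had the widest lineage differences in opposite directions. Of the 250 bases before that start (GRCm38.p6), each line gives the first 128 to 232 bases, up to the first base that a GENCODE M21 exon of the gene covers, 5′ to 3′ on the gene's strand: *Cxcr3* at chrX:101734270-101734397 and *Ccr4* at chr9:114496563-114496794, both minus strand, and *Ccr9* at chr9:123766961-123767168 and *Ccr8* at chr9:120091883-120092113, both plus strand. The *Cxcr3* and *Ccr8* stretches lie before the M21 gene, while those of *Ccr4* and *Ccr9* lie inside the M21 gene span, in an intron of a longer transcript that starts further upstream. Capitals mark matches on either strand to the core words of factor families active in T cells, RUNX (TGTGGT), T-box (GGTGTGA) or ETS (GGAAGT).
Cxcr3: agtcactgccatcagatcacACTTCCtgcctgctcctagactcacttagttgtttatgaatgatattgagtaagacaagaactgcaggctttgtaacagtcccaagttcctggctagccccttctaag
Ccr9: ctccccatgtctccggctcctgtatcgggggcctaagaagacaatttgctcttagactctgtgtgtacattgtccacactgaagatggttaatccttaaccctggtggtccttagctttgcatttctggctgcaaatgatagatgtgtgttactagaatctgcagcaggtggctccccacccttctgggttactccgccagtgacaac
Ccr4: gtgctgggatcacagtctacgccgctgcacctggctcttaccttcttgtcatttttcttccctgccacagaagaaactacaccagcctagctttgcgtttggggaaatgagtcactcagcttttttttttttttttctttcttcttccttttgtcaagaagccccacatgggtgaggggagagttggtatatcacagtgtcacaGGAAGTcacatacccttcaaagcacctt
Ccr8: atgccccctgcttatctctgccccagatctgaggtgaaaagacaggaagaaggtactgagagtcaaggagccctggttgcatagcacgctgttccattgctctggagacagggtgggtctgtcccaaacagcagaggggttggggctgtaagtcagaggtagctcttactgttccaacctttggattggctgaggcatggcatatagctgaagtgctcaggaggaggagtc
Over its whole 250 bases, the *Cxcr3* window held an ETS word with 224 bases between it and the start, and, in bases that M21 assigns to exon 1 and that are not shown, a RUNX word 104 bases and a further ETS word 10 bases before the start, all 3 on the opposite strand. The *Ccr4* window held 1 ETS word 40 bases before the start, and the *Ccr9* and *Ccr8* windows held none of the 3 words. Among 32841 mouse promoter windows of 250 bases, 14.0% held the RUNX word, 19.7% the ETS word and 3.33% the T-box word. Of the 8 windows available for 7 receptors, 1 held the RUNX word (*Cxcr3*), 3 the ETS word (*Ccr4*, *Ccr6* and *Cxcr3*) and 0 the T-box word. A match describes the letters of the window and not a bound site.

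Among markers of memory or innate memory cells (*Cd44*, *Il2rb*, *Eomes*, *Ly6c2*, *Ccl5*, *Itga1*, *Itga4* and *Tbx21*, 7 of 8 tested), 6 were lower and 0 higher in B6 CD4+ than in CD8+ T cells, and 5 were lower and 2 higher in CD8.1 than CD8.2 cells. *Tbx21*, whose product T-bet is known to activate *Cxcr3*, was measured at 31.0, 30.7 and 37.4 CPM in B6 CD8+ T cells. In CD8.2 T cells it was at 14.3, 13.8 and 15.5 CPM. *Eomes*, of the same list, was at 76.7, 69.4 and 113 CPM in B6 CD8+ and 81.0, 78.1 and 75.6 CPM in CD8.2 T cells. The list summed to 363 to 401 CPM in B6 CD4+, 1637 to 1938 in B6 CD8+, 539 to 580.3 in CD8.1 and 1067 to 1088 in CD8.2 T cells, with *Itga1* at 0 in some samples. Of 4 natural killer cell genes, 3 were tested and all 3 were lower in the helper lineage of each strain, and their sum, 2.96 to 5.66 CPM in B6 CD4+, 499 to 556 in B6 CD8+, 7.88 to 11 in CD8.1 and 374 to 437 in CD8.2 T cells, was mostly *Nkg7*, while the defining marker *Ncr1* was at 0.216 CPM in B6 CD4+ and 0.0563 CPM in B6 CD8+ T cells on average. Of all tested genes, 11.4% were higher and 11.7% lower in the helper lineage of B6 mice. In CD8Dual mice these shares were 14.9% and 13.8%. The part of the memory and natural killer cell genes in the receptor differences was not tested. In bulk RNA, a change in the number of cells that hold a transcript and a change in transcript per cell cannot be told apart, which applies to every receptor here.

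*Ccr4*, *Ccr8* and *Ccr6* were higher in helper lineage cells of both strains. CCR4 binds CCL17 and CCL22 and is found on skin-homing, T helper and regulatory T cells, and CCR8 is a receptor for CCL1 and CCL8 that is prominent on regulatory T cells. *Ccr4* (chr9:114490316-114504916, minus strand) has 2 exons, with the coding sequence for 360 amino acids in exon 2. It was measured at 28.2, 38.2 and 26.4 CPM in CD8.1 and 5.91, 6.77 and 12.1 CPM in B6 CD4+ T cells, and at 2.43, 2.39 and 1.66 CPM in CD8.2 and 0.983, 1.31 and 1.64 CPM in B6 CD8+ T cells. No 2 neighbouring groups overlapped, and CD8.1 samples were the highest. The change was 6.35-fold in B6 (log2 2.67 ± 0.29, edgeR adjusted *P* = 5.18e-06) and 14.6-fold in CD8Dual mice (log2 3.87 ± 0.27, edgeR adjusted *P* = 3.22e-08).

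*Ccr8* (chr9:120092114-120094906, plus strand) also has 2 exons with the coding sequence in exon 2, for 353 amino acids. It was measured at 6.00, 7.33 and 16.4 CPM in B6 CD4+ and 6.87, 9.38 and 5.84 CPM in CD8.1 T cells. Cytotoxic samples were near the floor, with 0.0819, 0.509 and 0.433 CPM in B6 CD8+ (2 counts in replicate 1) and 0.383, 0.445 and 0.321 CPM in CD8.2 T cells. Thus the 6 helper samples lay above the 6 cytotoxic samples, and B6 CD4+ replicate 3 was the highest of all. *Ccr8* was 28.5-fold higher in B6 CD4+ than in CD8+ T cells (log2 4.83 ± 0.47, edgeR adjusted *P* = 1.34e-06) and 19.5-fold higher in CD8.1 than CD8.2 cells (log2 4.29 ± 0.47, edgeR adjusted *P* = 5.86e-06).

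CCR6 is the receptor of CCL20 and is found on interleukin-17-producing helper cells, B cells and a part of regulatory T cells. *Ccr6* (chr17:8236043-8257141, plus strand) has 6 exons, with the coding sequence for 367 amino acids in the last exon. It was measured at 12.4, 9.64 and 11.3 CPM in CD8.1, 2.64, 2.76 and 3.91 CPM in B6 CD4+, 2.04, 1.67 and 0.992 CPM in CD8.2 and 1.02, 0.618 and 0.481 CPM in B6 CD8+ T cells. CD8.1 samples stood above all others, and the cytotoxic groups of the strains overlapped. The lineage change was 4.33-fold in B6 (log2 2.12 ± 0.31, edgeR adjusted *P* = 9.79e-05) and 7.24-fold in CD8Dual mice (log2 2.86 ± 0.27, edgeR adjusted *P* = 1.21e-06).

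Regulatory T cell markers moved beside these 3 receptors. *Foxp3*, the lineage factor of regulatory T cells, was measured at 32.6, 37.8 and 44.6 CPM in B6 CD4+ and 102, 149 and 168 CPM in CD8.1 T cells, and at 0.287, 0.182 and 0.529 CPM in B6 CD8+ and 0.809, 1.44 and 1.46 CPM in CD8.2 T cells. Of 8 markers (*Foxp3*, *Il2ra*, *Ikzf2*, *Ctla4*, *Tnfrsf18*, *Lrrc32*, *Gpr83* and *Itgae*), 6 were higher and 1 (*Itgae*) lower in B6 CD4+ than in CD8+ T cells, 7 were higher and 1 (*Itgae*) lower in CD8.1 than CD8.2 cells, and 7 were higher and 0 lower in CD8.1 than B6 CD4+ cells. Their sum was 178 to 253 CPM in B6 CD4+, 455 to 511 in CD8.1, 157 to 159 in CD8.2 and 301 to 329.9 in B6 CD8+ T cells, where *Itgae* alone reached 246 CPM, and none of the 8 was at 0 in any sample. Between strains, *Foxp3* was higher in CD8.1 than B6 CD4+ cells by 1.87 ± 0.17 on the log2 scale (edgeR adjusted *P* = 1.18e-05), while *Ccr8*, at −0.43 ± 0.33 (edgeR adjusted *P* = 0.422), was not called. The marker counts stand beside 11.4% of all tested genes higher and 11.7% lower in B6 CD4+ than in CD8+ T cells. These shares were 14.9% and 13.8% in CD8.1 over CD8.2 cells, and 6.94% and 5.82% in CD8.1 over B6 CD4+ cells. The part of regulatory T cells in these results was not tested.

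**Figure D2:**
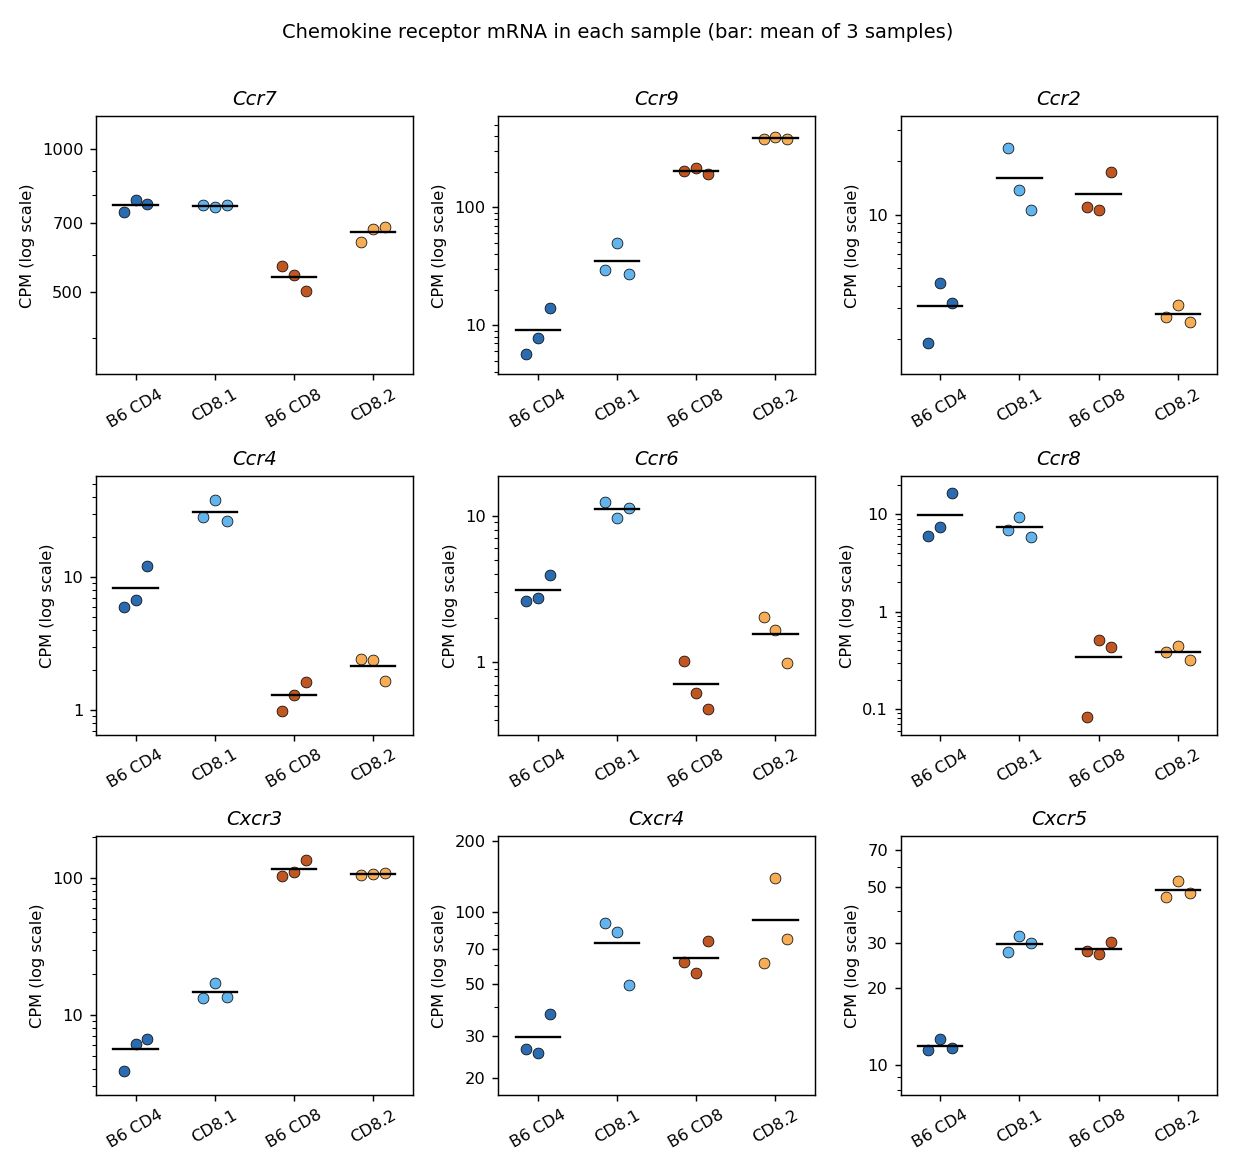
CPM of each receptor in every sample on log axes, 3 samples in each of the groups B6 CD4, CD8.1, B6 CD8 and CD8.2, with a bar at the group mean. The helper groups (blue) lie above the cytotoxic groups (orange) for *Ccr4*, *Ccr6* and *Ccr8*, below them for *Ccr9* and *Cxcr3*, and *Ccr2* is high in CD8.1 and B6 CD8 and low in the other 2 groups.

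*Ccr2* was the receptor whose lineage difference turned around between the strains. CCR2 binds CCL2 and is best known on monocytes, but is also carried by memory and innate-like T cells. *Ccr2* (chr9:124101950-124113557, plus strand) has 3 exons with the coding sequence for 373 amino acids in exon 3. In B6 mice it was measured at 1.91, 4.14 and 3.19 CPM in CD4+ and 11.1, 10.6 and 17.4 CPM in CD8+ T cells, all CD8+ samples being higher. In CD8Dual mice it was measured at 23.8, 13.8 and 10.6 CPM in CD8.1 and 2.68, 3.11 and 2.51 CPM in CD8.2 T cells, all CD8.1 samples being higher. *Ccr2* was 4.19-fold lower in B6 CD4+ than in CD8+ T cells (log2 −2.07 ± 0.31, edgeR adjusted *P* = 0.000116) and 5.85-fold higher in CD8.1 than CD8.2 cells (log2 2.55 ± 0.31, edgeR adjusted *P* = 1.9e-05). The difference between these 2 changes, tested as an interaction, was 4.62 ± 0.44 (95% interval 3.68 to 5.55, edgeR adjusted *P* = 1.93e-05), and it was called in each of the alternative fits run for the interaction.

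The methods name RSEM, which shares out reads that match several genes by a model, while the table's column names speak of STAR counts, so how reads common to *Ccr2* and similar receptor genes were counted is uncertain. Myeloid markers (8 genes, 7 tested) summed to 3.5 to 7.95 CPM in B6 CD4+, 9.01 to 11.4 in B6 CD8+, 15.7 to 19.7 in CD8.1 and 10.2 to 23.7 in CD8.2 T cells, with *Cd14* at 0 in all B6 CD8+ and CD8.2 samples. Of the 7, 0 were higher and 2 lower in B6 CD4+ than in CD8+ T cells, and 1 was higher and 1 lower in CD8.1 than CD8.2 cells. The CD8.2 sums were 12.2, 23.7 and 10.2 CPM in replicates 1 to 3, so that replicate 2 lay above and the others below the CD8.1 samples. Genes of NKT and γδ T cells moved with *Ccr2*: *Tcrg-C1*, a TCRγ constant gene, was measured at 0.318, 0.474 and 0.425 CPM in B6 CD4+, 0.983, 1.64 and 0.914 in B6 CD8+, 2.20, 2.39 and 1.66 in CD8.1 and 0.383, 0.667 and 0.437 in CD8.2 T cells. Of the 4 tested genes of that list, 2 (*Tcrg-C1* and *Tcrg-C2*) were lower and 2 higher in B6 CD4+ than in CD8+ T cells, and 4 were higher in CD8.1 than CD8.2 cells. The list of 6 summed to 11.8 to 12.7 CPM in B6 CD4+, 9.13 to 11.2 in B6 CD8+, 17.8 to 19.9 in CD8.1 and 8.46 to 9.92 in CD8.2 T cells, *Zbtb16* was at 0 in all B6 samples and *Sox13* at 0 in all B6 CD8+ samples. Of all tested genes, 11.4% were higher and 11.7% lower in B6 CD4+ than in CD8+ T cells. In CD8.1 over CD8.2 cells these shares were 14.9% and 13.8%. The part of myeloid, NKT and γδ T cells in the *Ccr2* result was not tested.

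CXCR5 binds CXCL13 and leads B cells and follicular helper T cells into follicles. *Cxcr5* (chr9:44511787-44561877, minus strand) has 2 exons, both coding, for 374 amino acids. It was measured at 45.4, 52.6 and 47.4 CPM in CD8.2, 27.7, 32.0 and 30.1 CPM in CD8.1, 28, 27.2 and 30.4 CPM in B6 CD8+ and 11.5, 12.6 and 11.6 CPM in B6 CD4+ T cells. The spread within groups was small, all B6 CD4+ samples lay lowest and all CD8.2 samples highest, and CD8.1 and B6 CD8+ samples overlapped. *Cxcr5* was 2.40-fold lower in B6 CD4+ than in CD8+ T cells (log2 −1.26 ± 0.09, edgeR adjusted *P* = 5.62e-08) and 1.62-fold lower in CD8.1 than CD8.2 cells (log2 −0.69 ± 0.09, edgeR adjusted *P* = 2.61e-05). Other follicular helper genes went the opposite way, with 5 of 6 (*Bcl6*, *Pdcd1*, *Icos*, *Il21* and *Tox2*) higher and 0 lower in the helper lineage of each strain. Their sum was 108 to 128 CPM in B6 CD4+, 76.4 to 88.0 in B6 CD8+, 124 to 153 in CD8.1 and 91.5 to 98.1 in CD8.2 T cells, with *Il21* at 0 in all B6 CD8+ samples. Of 8 B cell genes, 4 were higher and 2 lower in B6 CD4+ than in CD8+ T cells, and 3 were higher and 0 lower in CD8.1 than CD8.2 cells. They summed to 562 to 599 CPM in B6 CD4+, 661 to 684 in B6 CD8+, 692 to 844 in CD8.1 and 612 to 717 in CD8.2 T cells. Both lists stand beside 11.4% of all tested genes higher and 11.7% lower in the helper lineage of B6 mice. In CD8Dual mice these shares were 14.9% and 13.8%. Exons of *Cxcr5* overlap those of *Bcl9l* on the other strand, which had 166 CPM in B6 CD8+, 123 in CD8.2, 95.3 in CD8.1 and 91.6 in B6 CD4+ T cells on average. Whether counting used strand is not given in the sources used here, so reads of the 2 genes cannot be told apart where they overlap.

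CXCR4 binds CXCL12, retains cells in bone marrow and thymus and is carried by nearly all lymphocytes. *Cxcr4* (chr1:128588199-128592293, minus strand) has 2 exons, both coding, for 359 amino acids. It was measured at 26.6, 25.5 and 37.3 CPM in B6 CD4+ and 61.6, 55.4 and 75.8 CPM in B6 CD8+ T cells, which did not overlap (log2 −1.11 ± 0.27, edgeR adjusted *P* = 0.00719). In CD8Dual mice, CD8.1 samples at 89.8, 82.6 and 49.1 CPM and CD8.2 samples at 60.8, 139 and 77.2 CPM overlapped, and no difference was called (log2 −0.32 ± 0.26, 95% interval −0.88 to 0.24, edgeR adjusted *P* = 0.395). CD8.2 replicate 2 was the highest of the 12 samples, and without it the CD8Dual difference was 0.09. That sample also had the highest level in its group of the myeloid gene *Lyz2* (16.2 CPM, against 7.19 and 6.50 in the others) and of the B cell gene *Cd79a* (31.6 CPM, against 28.3 and 13.3), and the part of such cells in its *Cxcr4* level was not tested. The difference between the strains in its lineage change was not called (0.79 ± 0.38, edgeR adjusted *P* = 0.388).

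Between strains, receptors that differed were higher in CD8Dual than in B6 T cells with the exception of *Ccr2* in cytotoxic cells. Comparing CD8.1 with B6 CD4+ T cells, 7 of 9 receptors were higher, against 6.94% of all tested genes, and 0 of 9 were lower, against 5.82%. Of the 9, 1 (*Ccr2*) was a DEG (0.61% of all tested genes). Here and below B6 groups serve as controls that the comparisons within B6 also used. *Ccr2* was 5.19-fold higher (log2 2.38 ± 0.31, edgeR adjusted *P* = 0.000253), *Ccr9* 3.83-fold (1.94 ± 0.25, edgeR adjusted *P* = 0.000262), *Ccr4* 3.74-fold (1.90 ± 0.23, edgeR adjusted *P* = 0.000145) and *Ccr6* 3.57-fold (1.84 ± 0.25, edgeR adjusted *P* = 0.000399). *Cxcr3*, *Cxcr5* and *Cxcr4* were 2.61-fold, 2.52-fold and 2.48-fold higher (edgeR adjusted *P* = 0.000122, 8.23e-07 and 0.00709). For each of these 7, all 3 CD8.1 samples exceeded all 3 B6 CD4+ samples. Without CD8.1 replicate 1, 7 receptors were again higher and 0 lower. *Ccr7* differed by less than the spread (−0.0029, 95% interval −0.14 to 0.14). *Ccr8* was also not called (95% interval −1.14 to 0.28), and its sign depended on B6 CD4+ replicate 3, without which it was 0.12.

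Comparing CD8.2 with B6 CD8+ T cells, 3 of 9 receptors were higher, against 3.29% of all tested genes, and 1 was lower, against 4.66%. None was a DEG (0 of 9, 0.579% of all tested genes). *Cxcr5* was 1.70-fold higher (log2 0.76 ± 0.09, edgeR adjusted *P* = 0.000129), *Ccr9* 1.89-fold (0.92 ± 0.22, edgeR adjusted *P* = 0.0186) and *Ccr7* 1.24-fold (0.31 ± 0.07, edgeR adjusted *P* = 0.00959). *Ccr2* was 4.73-fold lower (−2.24 ± 0.31, edgeR adjusted *P* = 0.000555). In all 4 the samples of the strains did not overlap. The *Ccr9* call was lost when any single sample of the pair was left out (adjusted *P* 0.0528 to 0.0696) and by the DESeq2 Wald test (adjusted *P* = 0.0575), and the *Ccr7* call was lost without CD8.2 replicate 3 (adjusted *P* = 0.0571). *Cxcr3*, with log2 −0.12 ± 0.13, had an interval of −0.40 to 0.16. *Ccr6* (1.10 ± 0.33, edgeR adjusted *P* = 0.0552), *Ccr4* (0.70 ± 0.33, edgeR adjusted *P* = 0.214), *Cxcr4* (0.52 ± 0.26, edgeR adjusted *P* = 0.253) and *Ccr8* (0.12 ± 0.67, edgeR adjusted *P* = 0.941) were not called. *Ccr6* passed with no filter (adjusted *P* = 0.00373), by the DESeq2 Wald test (0.0142), without B6 CD8+ replicate 1 (0.0471) and without CD8.2 replicate 3 (0.0288).

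**Figure D3:**
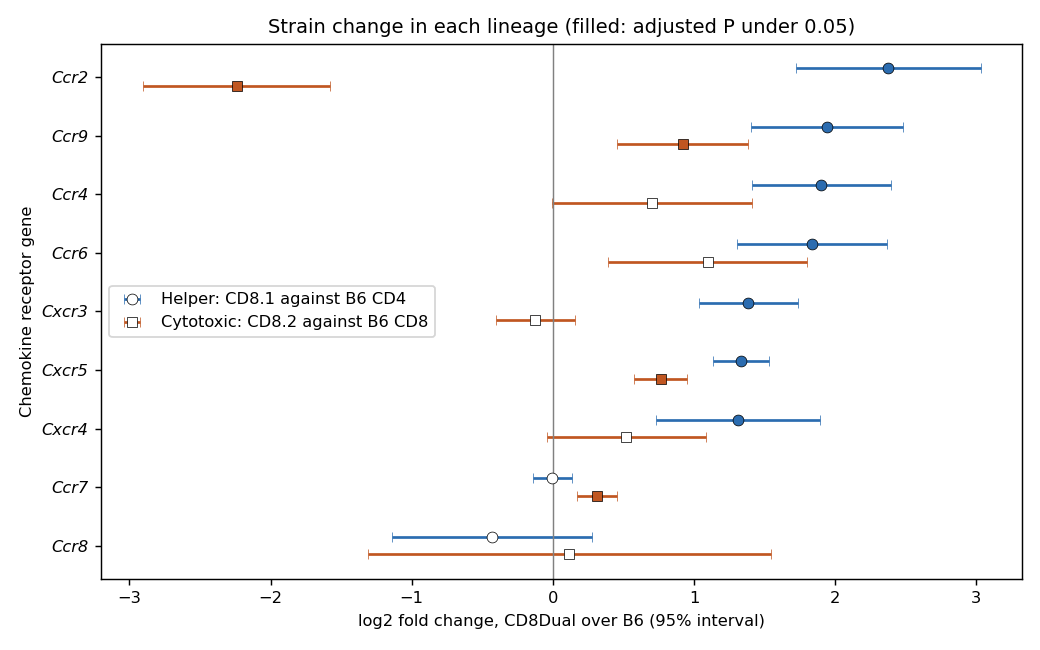
Log2 fold change of each receptor between strains, CD8Dual over B6 (horizontal axis), in helper cells (blue circles, CD8.1 against B6 CD4+) and cytotoxic cells (orange squares, CD8.2 against B6 CD8+), with 95% intervals and filled symbols for an adjusted *P* under 0.05. In helper cells 7 receptors lie to the right of 0 with filled symbols, and *Ccr2* lies at 2.38 in helper and −2.24 in cytotoxic cells.

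Marker lists were also counted between strains. In CD8.1 over B6 CD4+ cells, 6.94% of all tested genes were higher and 5.82% lower. In CD8.2 over B6 CD8+ cells these shares were 3.29% and 4.66%. In CD8.1 against B6 CD4+ T cells, 5 of 7 tested memory genes, 4 of 7 myeloid genes, 3 of 8 B cell genes, 3 of 4 NKT and γδ T cell genes, 2 of 6 follicular helper genes and 1 of 3 natural killer cell genes were higher and 0 of each list were lower, beside the 7 regulatory T cell genes given above. In CD8.2 against B6 CD8+ T cells, 4 memory genes, 1 NKT and γδ T cell gene, 1 natural killer cell gene and 1 myeloid gene (*Itgax*) were lower, 3 B cell genes, 1 follicular helper gene and 1 myeloid gene (*Lyz2*) were higher, and 2 regulatory T cell genes were higher and 2 lower. *Cd44*, a memory marker, was at 35.1 CPM in B6 CD4+, 72.0 in CD8.1, 51.0 in B6 CD8+ and 55.2 in CD8.2 T cells on average, and the study's methods, unlike the labels, name a sort for CD44- cells. The part of such cells in the receptor differences between strains was not tested.

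The interaction tested whether the lineage difference itself changed between strains, a positive value meaning a helper-to-cytotoxic difference that was more positive in CD8Dual mice. It was called for 3 of 9 receptors with a positive sign, against 1.58% of all tested genes, and for 0 of 9 with a negative sign, against 0.29%. Beside *Ccr2*, it was called for *Cxcr3* (1.51 ± 0.21, edgeR adjusted *P* = 0.000886) and *Cxcr5* (0.57 ± 0.13, edgeR adjusted *P* = 0.0301), whose cytotoxic bias was therefore smaller in CD8Dual mice. The *Cxcr5* call was lost in 8 of the 12 fits that left out 1 sample (adjusted *P* 0.057 to 0.11). For *Ccr4*, *Ccr9* and *Ccr7* the interaction was 1.2 ± 0.41, 1.02 ± 0.33 and −0.32 ± 0.09 (edgeR adjusted *P* = 0.204, 0.181 and 0.122). With B6 CD4+ replicate 3 left out, *Ccr9* (1.44, adjusted *P* = 0.0109) and *Ccr4* (1.57, adjusted *P* = 0.0179) passed, and with CD8.1 replicate 1 left out *Ccr7* (−0.33, adjusted *P* = 0.0257) and *Ccr9* (1.12, adjusted *P* = 0.0464) did. With samples blocked by replicate number *Ccr4* also passed (1.22, adjusted *P* = 0.0177).

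Divided by the length of the principal transcript, receptor levels could be set beside each other. *Ccr7* dominated every group, at 385 CPM per kb in B6 CD4+, 385 in CD8.1, 338 in CD8.2 and 272 in B6 CD8+ T cells. It made up 90.3% of the summed level of the 9 receptors in B6 CD4+ T cells, 79.1% in CD8.1, 59.2% in B6 CD8+ and 56.3% in CD8.2 T cells. *Ccr9* made up 21.3% in CD8.2 and 14.8% in B6 CD8+ T cells but 2.41% in CD8.1 and 0.715% in B6 CD4+ T cells, and *Cxcr3* 10.3%, 14.7%, 1.74% and 0.756% in the same order. Second to *Ccr7* stood *Cxcr4* in B6 CD4+ (16.5 CPM per kb) and CD8.1 T cells (40.9), and *Ccr9* in CD8.2 T cells (128). In B6 CD8+ T cells *Ccr9* (67.8 ± 3.68 CPM per kb, SD, n = 3) and *Cxcr3* (67.4 ± 9.22) did not differ beyond their spread. *Ccr8* had the third level per length in B6 CD4+ T cells (8.44 CPM per kb) and the lowest in B6 CD8+ and CD8.2 T cells (0.290 and 0.326). The share of *Ccr9* depended on the length used: over all annotated exons (10260 bases rather than 3004) it was 7.43% in CD8.2 and 4.88% in B6 CD8+ T cells, and *Ccr9* (37.5 and 19.8 CPM per kb) then lay below *Cxcr3* (61.9 and 67.4) and *Cxcr4* (51.1 and 35.5).

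**Figure D4:**
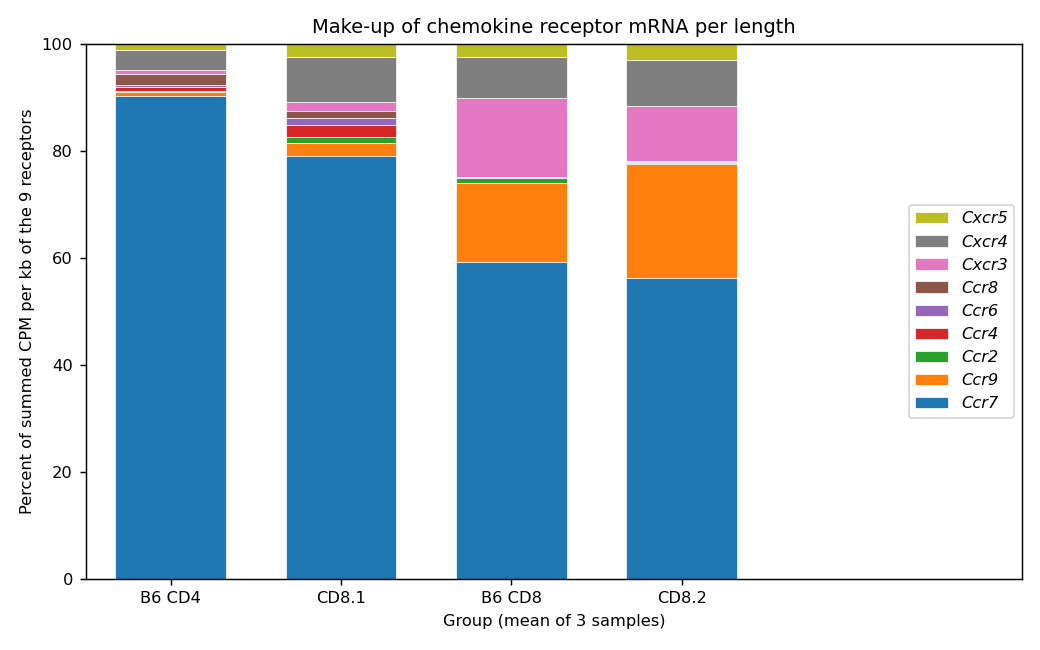
Stacked bars of each receptor's percent of the summed CPM per kb of the 9 receptors, from group means of 3 samples. *Ccr7* fills 90.3% of the B6 CD4 bar and 56.3% of the CD8.2 bar, and *Ccr9* and *Cxcr3* are wider in the 2 cytotoxic groups than in the helper groups.

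Of 16 other chemokine, atypical and chemokine-like receptors, 6 had enough counts to be tested. In B6 mice 3 were higher and 2 lower in CD4+ than in CD8+ T cells, against 11.4% and 11.7% of all tested genes. In CD8Dual mice 4 were higher and 2 lower in CD8.1 than CD8.2 cells, against 14.9% and 13.8%. In CD8.1 over B6 CD4+ cells 4 were higher and 0 lower, against 6.94% and 5.82%. In CD8.2 over B6 CD8+ cells 0 were higher and 2 lower, against 3.29% and 4.66%. The interaction was positive for 2, against 1.58% of all tested genes. *Cxcr6*, the receptor of CXCL16 on memory and innate-like T cells, shared the cytotoxic side of *Cxcr3* and *Ccr9*: it was measured at 260.1, 279 and 289.8 CPM in B6 CD8+, 174, 194 and 194 in CD8.2, 16.5, 10.5 and 10.3 in CD8.1 and 2.64, 2.97 and 3.02 in B6 CD4+ T cells. Its log2 change was −6.58 ± 0.17 (edgeR adjusted *P* = 2.6e-13) in B6 and −3.91 ± 0.14 (edgeR adjusted *P* = 2.71e-11) in CD8Dual mice. *Ccr3*, an eotaxin receptor, was on the helper side with *Ccr4*, *Ccr6* and *Ccr8*, at 2.77, 2.96 and 2.52 CPM in CD8.1 and 0.136, 0.474 and 0.425 CPM in B6 CD4+ T cells against 0 counts in all B6 CD8+ samples and 0, 0 and 0.0875 CPM in CD8.2 T cells (edgeR adjusted *P* = 0.00214 in B6 and 1.18e-05 in CD8Dual mice). *Cxcr1*, an interleukin-8-type receptor, was on that side as well, with 1.55, 2.16 and 1.06 CPM in B6 CD4+ and 1.58, 1.42 and 1.33 CPM in CD8.1 T cells, and changes of 4.17 ± 0.55 (edgeR adjusted *P* = 3.95e-05) in B6 and 3.42 ± 0.52 (edgeR adjusted *P* = 0.00015) in CD8Dual mice.

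**Figure D5:**
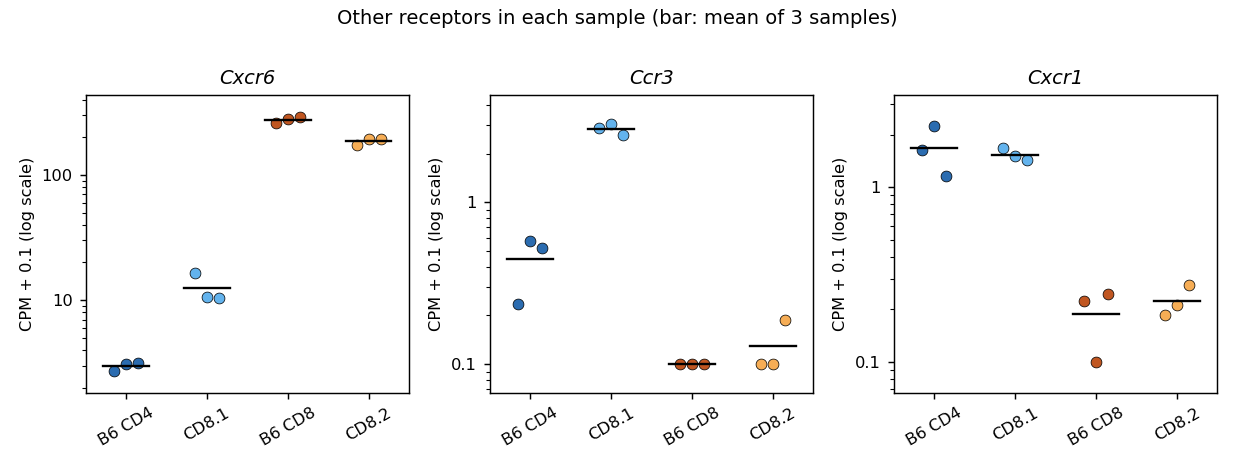
CPM + 0.1 of 3 of the 6 other tested receptors in every sample on log axes, 3 samples per group with a bar at the mean. *Cxcr6* is higher in the cytotoxic groups (orange) and *Ccr3* and *Cxcr1* in the helper groups (blue).

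Of 35 chemokine ligand genes, 8 had enough counts to be tested. In B6 mice 0 were higher and 4 lower in CD4+ than in CD8+ T cells, against 11.4% and 11.7% of all tested genes. In CD8Dual mice 0 were higher and 3 lower in CD8.1 than CD8.2 cells, against 14.9% and 13.8%. In CD8.1 over B6 CD4+ cells 2 were higher and 0 lower, against 6.94% and 5.82%. In CD8.2 over B6 CD8+ cells 0 were higher and 3 lower, against 3.29% and 4.66%. *Ccl5*, which is also in the memory list, *Ccl4*, an inflammatory chemokine, and *Xcl1*, the ligand of XCR1 on dendritic cells, were all lower in the helper lineage. *Ccl5* had a log2 change of −5.85 ± 0.19 (edgeR adjusted *P* = 4.43e-12) in B6 and −2.38 ± 0.17 (edgeR adjusted *P* = 5.4e-08) in CD8Dual mice, and *Xcl1* of −5.62 ± 0.27 (edgeR adjusted *P* = 3.93e-10) and −3.54 ± 0.25 (edgeR adjusted *P* = 3.31e-08). *Ccl4* had 3.47 CPM in B6 CD8+, 1.69 in CD8.2, 0.201 in CD8.1 and 0.0431 CPM in B6 CD4+ T cells on average, the last under the floor.

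The machinery that chemokine receptors share was described by counts. Of 42 genes for G protein subunits, receptor kinases, arrestins, RGS proteins and migration effectors, 40 were tested, and 6 were higher and 4 lower in B6 CD4+ than in CD8+ T cells, 9 were higher and 9 lower in CD8.1 than CD8.2 cells, 4 higher and 3 lower in CD8.1 than B6 CD4+ cells, and 0 higher and 2 lower in CD8.2 than B6 CD8+ cells. In B6 mice these counts are near the 11.4% and 11.7% of all tested genes. In CD8Dual mice, 9 of 40 in each direction lay above the 14.9% and 13.8% of all tested genes. The shares of all tested genes were 6.94% higher and 5.82% lower in CD8.1 over B6 CD4+ cells. They were 3.29% and 4.66% in CD8.2 over B6 CD8+ cells. None of the signalling genes (0 of 40) was a DEG in any of these comparisons, where at most 3.32% of all tested genes were. The median log2 change of the 40 was 0.01 in B6 and −0.01 in CD8Dual mice. The genes named by rule were RGS genes, whose products switch off G proteins. *Rgs1* was at 24.5 ± 5.62 CPM (SD, n = 3) in CD8.1 and 7.97 ± 0.888 CPM in B6 CD4+ T cells, against 5.94 ± 0.712 in CD8.2 and 4.20 ± 0.722 in B6 CD8+ T cells, and its lineage change was 2.05 ± 0.17 (edgeR adjusted *P* = 3.32e-07) in CD8Dual and 0.93 ± 0.18 (edgeR adjusted *P* = 0.0013) in B6 mice. *Rgs2* was higher in the helper lineage of B6 mice by 0.96 ± 0.11 (edgeR adjusted *P* = 1.34e-05) and *Rgs10* in that of CD8Dual mice by 0.69 ± 0.09 (edgeR adjusted *P* = 3.74e-05).

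For each receptor the 2 genes with the most similar profile were sought among 11270 tested genes with a mean of at least 1 CPM, by the root mean square difference of centred log2 CPM over the 12 samples, where the samples share their libraries and depth. *Cxcr3* was the nearest gene to *Ccr9* (0.511), before *Cd8b1* (0.617), but *Ccr9* was not among the 2 nearest to *Cxcr3*. *Cxcr3* had *Zfp296* (0.284) and *Cxxc5* (0.305) as its nearest, *Ccr4* had *Nrp1* (0.399) and *Socs2* (0.409), *Ccr8* had *Adh1* (0.496) and *Ecm1* (0.575) and *Ccr6* had *Zfp870* (0.353) and *S100a4* (0.432). *Ccr2*, low in B6 CD4+ and CD8.2 T cells, had *Steap3* (0.468) and *Gpr15* (0.553). *Ccr7* had *Ccm2* (0.0691) and *Crlf3* (0.0695), *Cxcr5* had *Fhit* (0.235) and *1810006J02Rik* (0.283), and *Cxcr4* had *Cd79b* (0.329) and *Atp2b4* (0.330). For comparison, the median difference over all candidates was 0.301 for *Ccr7* and 2.18 for *Ccr9*, so that the values are to be read against each receptor's own range.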

How the data were processed

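RNA-seq of sorted LN T cells was analysed for 12 samples in 4 groups of 3, mapped to groups and replicate numbers by their labels. Per the methods, the authors used a low-input template-switching library kit, STAR for alignment (mm10) and RSEM for counting. The deposited values are whole-number counts, not normalized. The column names speak of STAR counts, so which tool made the table is uncertain. Tool versions, the annotation release and use of strand are not given in the sources used here. Every column matched a sample (0 unmapped), and 0 rows named no gene. The 9 receptors and all gene lists were chosen with earlier results of these data known.

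Counts were fitted in R 4.3.3 with edgeR 4.0.16 (glmQLFit, glmQLFTest, TMM, filterByExpr, 13118 of 49585 genes kept), all 12 samples in 1 model with a coefficient per group. Genes were called at a Benjamini-Hochberg adjusted *P* under 0.05 over all tested genes, and as DEGs at a fold above 5 and an unadjusted *P* under 0.05. Each standard error was the log2 fold change over the root of its F statistic. The biological coefficient of variation was 11.2%. The fit was also run on simulated counts with planted fold changes. Those counts held no pairing and no outlying libraries, so that run does not cover these features of the samples. Depth was 18667474 to 37110502 counts per sample, which limits receptors near the 3-count floor, such as *Ccr8* in cytotoxic cells. No pair of replicates agreed within sampling noise (chi-square of at least 8.21 a gene). Samples of the same number deviated together in B6 mice (correlations of 0.126, 0.138 and 0.257 between CD4+ and CD8+ T cells). The numbers in the labels were therefore taken to pair B6 samples, but not CD8Dual samples (−0.00388, 0.0905 and 0.119) or samples across strains. The main model held no term for this pairing, so its standard errors and *P* values are those of an unpaired fit. A fit blocked by replicate number within strains was run as an alternative and kept all 9 receptor calls in B6 mice.

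Named were the 9 receptors, from each list of other receptors, ligands and signalling genes at most the 3 with the smallest within-strain adjusted *P* and any DEG, and for each receptor the 2 tested genes with the closest profile. Some genes that the rule or the marker lists hold are not reported here. Alternatives were DESeq2 1.42.0 size factors or Wald test, limma 3.58.1 voom, no filter, a mean of at least 1 CPM, only the groups compared, replicate blocks, the DEG rule and each sample left out. Positions were from GENCODE M21 on GRCm38, where 88.2% of gene identifiers had the same version (8 of the 9 receptors, *Ccr6* excepted). Upstream sequences were from RefSeq (GRCm38.p6), with entries for 7 of the 9 receptors. Plots used Python 3.11.15 with matplotlib 3.10.9.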

Additional observations from a re-analysis of the deposited data

Results flagged for a closer look

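The lineage difference of 3 receptors differed between the strains by edgeR's interaction test. The difference (log2, CD8Dual minus B6) was 4.62 for *Ccr2*, which was higher in cytotoxic cells of B6 mice and in helper cells of CD8Dual mice, with all 3 samples on the stated side in each strain. It was 1.51 for *Cxcr3* and 0.57 for *Cxcr5*, both higher in cytotoxic cells of either strain and less so in CD8Dual mice. The *Cxcr5* call did not hold when single samples were left out in 8 of 12 fits.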

How the results depend on the processing

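Of 630 values of the 9 receptors over 5 comparisons and all alternatives, 584 kept direction and side of the threshold, 25 lost and 16 gained a call and 5 changed sign, none of the 5 called. The sign changes came with 1 sample left out. *Ccr8* in CD8.2 over B6 CD8+ cells ran from −0.36 (without B6 CD8 replicate 1) to 0.58, *Ccr8* in CD8.1 over B6 CD4+ cells from −0.70 to 0.12 and in the interaction from −1.03 to 0.0104 (both highest without B6 CD4 replicate 3), *Ccr7* in CD8.1 over B6 CD4+ cells from −0.0372 to 0.0017 (without CD8.1 replicate 2), and *Cxcr4* in CD8.1 over CD8.2 cells from −0.56 to 0.0867 (without CD8.2 replicate 2). With no filter, CD8.2 over B6 CD8+ cells gave 1593 genes and 7 receptors, and the interaction 620 genes and 6 receptors. DESeq2's Wald test gave 410 genes in the interaction. With only the groups compared, 674 genes were called for CD8.1 over B6 CD4+ and 2515 for CD8.2 over B6 CD8+ cells. The DEG rule gave 431 genes and 4 receptors in B6 mice, 435 genes in CD8Dual mice, 80 genes and 1 receptor in CD8.1 over B6 CD4+ cells and 76 genes and 0 receptors in CD8.2 over B6 CD8+ cells. With single samples left out, genes called were 765 to 2958 for CD8.1 over B6 CD4+ cells, 431 to 802 for CD8.2 over B6 CD8+ cells and 165 to 1356 for the interaction, the highest of the first and last without CD8.1 replicate 1, and 2 to 5 receptors were called in the interaction. The replicate block within each strain kept all 9 receptor calls in B6 mice (3194 genes), lost *Ccr7* in CD8Dual mice and added *Ccr4* to the interaction. Fewer samples lower the power of each left-out fit, and the cause of the other changes was not tested. Depth limits *Ccr8* in cytotoxic cells, at 2 to 14 counts.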
